A study of Mus musculus with 2 samples.

Results

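The genes described here are the 42 Wnt ligands, Wnt receptors, and R-spondins among the 24091 genes measured. They were found by symbol and comprise 19 Wnt ligands, 10 Frizzled receptors, the co-receptors Lrp5 and Lrp6, the receptors Ror1, Ror2, and Ryk, 4 R-spondins, the 3 R-spondin receptors Lgr4, Lgr5, and Lgr6, and the feedback gene Axin2. RNA sequencing was performed on 2 libraries of polyadenylated RNA from C57BL/6 mice, 1 from sham-irradiated animals and 1 from animals given pelvic radiation. The labels state the radiation as 7.5 Gy and 5 days and do not say whether that dose was daily or total. Both groups share the remaining handling. Gonadal fat was collected 2 months after radiation, digested with collagenase, and the floating cells were cultured for 3 days. Both titles also name PBS without saying what it was given for, and the labels give neither the number nor the age of the mice. There was no replicate of either condition, so no test between conditions was made, and "higher" and "lower" describe these 2 libraries only.

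Wnt proteins are secreted, lipid-modified signals that bind Frizzled receptors on nearby cells. Together with the co-receptor LRP5 or LRP6, a bound Frizzled stops the destruction of β-catenin, which then activates genes with TCF/LEF factors, Axin2 among them. ROR and RYK receptors carry Wnt signals that do not need β-catenin. R-spondins bind LGR receptors and remove the ubiquitin ligases ZNRF3 and RNF43 from the cell surface, so that Frizzleds persist there longer. In adipose tissue, β-catenin signalling is known for holding progenitors back from becoming adipocytes.

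Levels are given as FPKM, a fragment count scaled to gene length and library total, so that levels can be compared between genes. The deposited log2 values corresponded to 30600000 fragments in the sham library and 35000000 in the irradiated library. Counts of genes cover those that reached an FPKM of 1 in either library, called kept, 11253 in all. "Difference" means irradiated minus sham on the deposited log2(FPKM + 0.1) scale, and "ratio" means irradiated over sham fragments per library total, with an exact 95% binomial (Clopper-Pearson) interval. A log2 ratio of 0 is a ratio of 1, so an interval above or below 0 excludes equal levels. These intervals cover counting error only and leave out variation between mice and cultures. The label "primary adipocytes" was checked against 12 adipocyte markers. Only 4 of them were kept (Fabp4, Pparg, Lpl, and Pnpla2), and Adipoq stood at an FPKM of 0.133 in the sham and 0.232 in the irradiated library. The 11 markers of fibroblasts and adipose progenitors were all kept. In bulk RNA, fewer cells of a type and less RNA per cell cannot be told apart.

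Of the 42 genes, 24 were kept. Of these, 12 were higher in the irradiated library, 11 were lower, and Lgr6 was equal. Their median difference was 0.03, beside 0.02 for all 11253 genes kept, of which 53.5% were higher. A difference of at least 0.5 was seen for 1 of the 24, Wnt2b, beside 4.31% of all genes kept, and a difference of -0.5 or lower for 1, Rspo3, beside 1.44%. Wnt2b was also the 1 member that reached a difference of 1, which 0.791% of all genes kept did, and 0 members reached -1, which 0.373% did. The counting interval lay above 0 for 6 of the 24 (25.0%, beside 23.8% of all genes kept) and below 0 for 7 (29.2%, beside 17.4%). With 99% intervals, 5 of the 24 lay above 0, beside 18.2% of all genes kept, and 2 lay below 0, Fzd4 and Rspo3, beside 12.9%. Fzd1, Fzd8, Lgr4, Lrp6, and Ror1 lay below 0 at 95% and not at 99%.

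**Figure D1:**
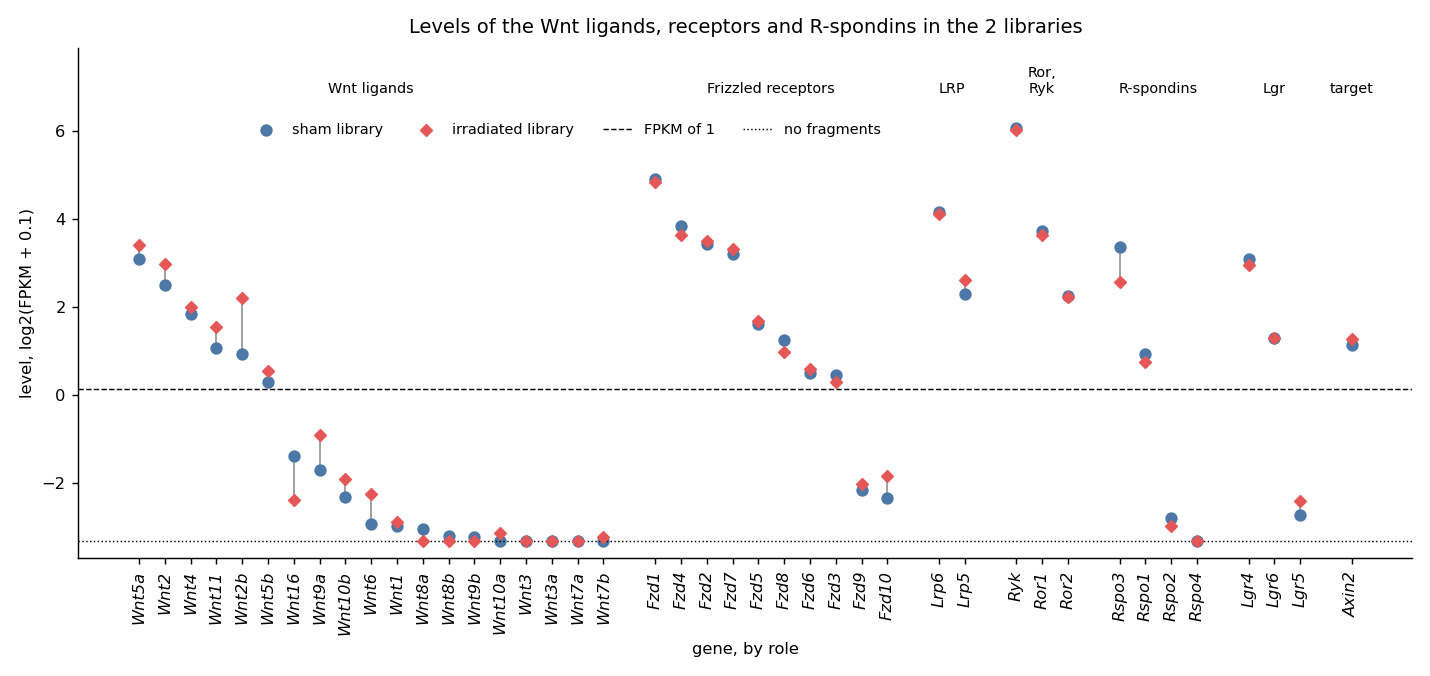
The vertical axis gives the level of each of the 42 genes on the log2(FPKM + 0.1) scale, as a circle for the sham and a diamond for the irradiated library, with genes ordered by role and level. The dashed line marks an FPKM of 1 and the dotted line a gene with no fragments. Ryk and Fzd1 stand highest, 13 of 19 Wnt ligands lie under the dashed line, and Wnt2b and Rspo3 show the widest gaps among the genes above it.

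Of the 19 Wnt ligands, 6 were kept, and all 6 had a higher value in the irradiated library, beside 53.5% of all genes kept. Their median difference was 0.4 (range 0.15 to 1.26), and 4 of the 6 counting intervals lay above 0 (66.7%, beside 23.8% of all genes kept). Wnt2b, a ligand that acts through β-catenin, lies on chromosome 3 from 104944805 to 104961709 (mm10, minus strand). It had an FPKM of 1.82 in the sham library, on 198 fragments, and 4.49 in the irradiated library, on 561. The difference was 1.26 and the ratio 2.48 (interval 2.10 to 2.93). Of all genes kept, 0.4% had a difference at least as high.

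Wnt2, the closest relative of Wnt2b and likewise a β-catenin ligand, had an FPKM of 5.60 in the sham and 7.84 in the irradiated library. Its ratio was 1.40 (1.23 to 1.60), with a difference of 0.48. Wnt11, a ligand known for cell movement and β-catenin-independent signalling, had an FPKM of 2.00 and 2.83, a ratio of 1.42 (1.18 to 1.71). The difference of Wnt11 was also 0.48, and 4.7% of all genes kept had one at least as high. Wnt2 and Wnt11 thus lay just under the threshold of 0.5.

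Wnt5a, the best known ligand of the ROR receptors, was the most abundant Wnt in both libraries. Its FPKM was 8.47 in the sham library (1132 fragments) and 10.6 in the irradiated library (1620 fragments), a ratio of 1.25 (1.16 to 1.35). Wnt4, known for its part in the development of the gonad and kidney, had an FPKM of 3.51 and 3.90, and its ratio of 1.11 had an interval that includes 1 (0.976 to 1.27). The same held for Wnt5b, a relative of Wnt5a, at 1.14 and 1.35 (ratio 1.19, 0.9 to 1.57). Wnt5b overlaps Fbxl14 on the opposite strand, and the sources used here do not say whether strand was used in counting.

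The summed FPKM of all 19 ligands was 23.2 in the sham and 31.9 in the irradiated library, 1.37 times as much, and without Wnt2b it was 21.4 and 27.4, 1.28 times as much. Wnt5a made up 36.5% of the sum in the sham and 33.3% in the irradiated library, and Wnt2 made up 24.1% and 24.6%. The share of Wnt2b went from 7.83% to 14.1%. In the sham library the order of levels was Wnt5a, Wnt2, Wnt4, Wnt11, Wnt2b, and Wnt5b. In the irradiated library Wnt2b followed Wnt2, ahead of Wnt4 and Wnt11. In the sham library the level of Wnt11 was 1.10 times that of Wnt2b, with an interval of this ratio that includes 1 (0.898 to 1.35), so their order was not resolved at this depth. In the irradiated library Wnt2b stood at 1.15 times Wnt4 (1.02 to 1.30). All other neighbours in either order had intervals of their ratio above 1.

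**Figure D2:**
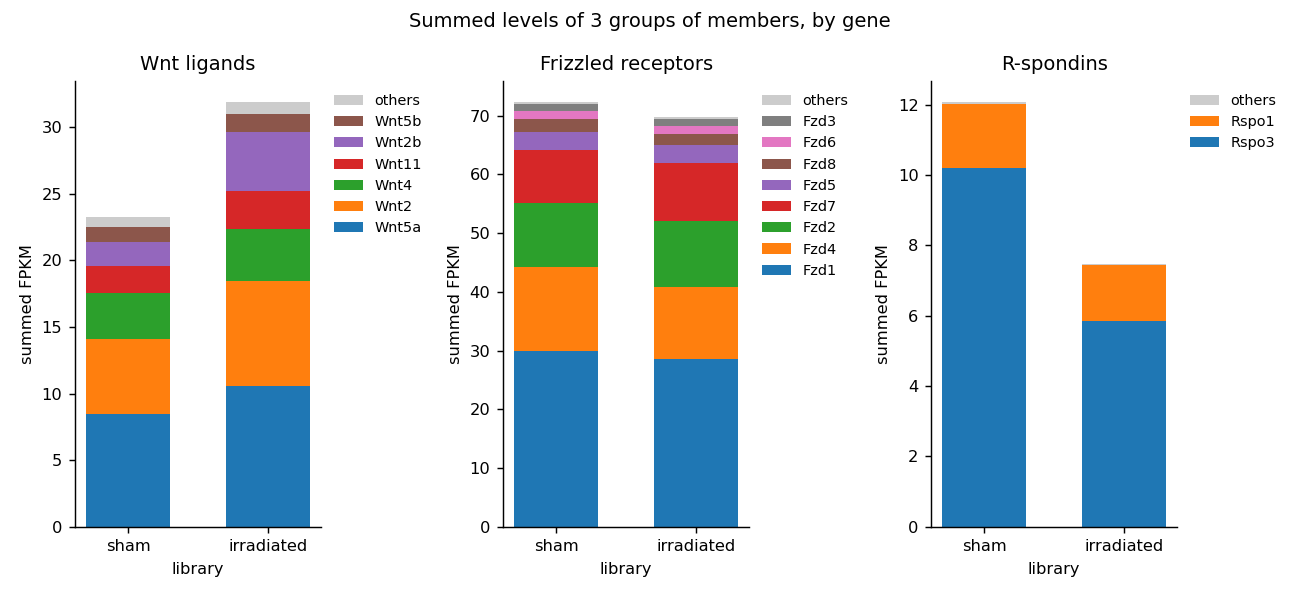
Each bar stacks the FPKM of the genes of 1 group in 1 library, for Wnt ligands, Frizzled receptors, and R-spondins, with genes under an FPKM of 1 joined as others. The Wnt sum goes from 23.2 in the sham to 31.9 in the irradiated library, the Frizzled sum is 72.2 and 69.8, and the R-spondin sum goes from 12.0 to 7.46.

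Sequence upstream of the start site is shown for the ligands Wnt2b, Wnt2, and Wnt11, which had the highest ratios among those kept, and for Axin2, the β-catenin target. It comes from RefSeq on GRCm38.p6, where 29 of the 42 genes had an entry. From the 250 bases before the start, only the stretch that no GENCODE M21 exon covers is given, in the direction of transcription. Exons cover the 212 bases nearest the start for Wnt2b and the 140 nearest it for Wnt2, so their stretches lie farther upstream. The 3 GC boxes of Wnt2b, between bases -116 and -68, fall outside the stretch shown. Capitals mark a TCF/LEF core (letters CTTTGAT, with T or A allowed as the final letter), a TATA box (letters TATAAA), or a GC box (letters GGGCGG), each on either strand, and neighbouring or overlapping matches run together.
Wnt2b (chr3:104961922-104961959, minus strand): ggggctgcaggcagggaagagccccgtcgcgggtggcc
Wnt2 (chr6:18030586-18030695, minus strand): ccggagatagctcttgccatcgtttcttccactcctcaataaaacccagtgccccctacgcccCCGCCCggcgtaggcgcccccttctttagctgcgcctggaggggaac
Wnt11 (chr7:98834862-98835111, plus strand): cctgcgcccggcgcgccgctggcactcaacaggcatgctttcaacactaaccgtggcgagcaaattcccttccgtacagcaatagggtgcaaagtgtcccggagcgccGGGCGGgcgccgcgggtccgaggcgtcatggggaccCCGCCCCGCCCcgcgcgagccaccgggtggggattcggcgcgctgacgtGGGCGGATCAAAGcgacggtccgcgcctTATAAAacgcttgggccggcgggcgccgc
Axin2 (chr11:108920099-108920348, plus strand): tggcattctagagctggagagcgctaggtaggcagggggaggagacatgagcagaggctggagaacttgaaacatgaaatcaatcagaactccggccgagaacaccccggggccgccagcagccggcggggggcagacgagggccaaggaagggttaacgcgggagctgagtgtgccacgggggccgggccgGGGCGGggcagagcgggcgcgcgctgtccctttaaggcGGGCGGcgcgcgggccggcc

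The Wnt11 stretch held 1 TCF/LEF core, from base -51 to -45 before the start and directly beside a GC box, and a TATA box from -29 to -24. Over the whole 250 bases, Wnt11 was the 1 member of 29 with a TCF/LEF core, a motif found in 7.48% of all 32851 promoters of this length. A GC box was found in 23 of 29 members and in 32.7% of all promoters, and a TATA box in 3 (Fzd1, Ryk, and Wnt11) and in 12.4%. An AP-1 site (TGANTCA) was found in 2 members, Ror2 and Wnt5b, and in 6.75% of all promoters. The median GC content of the members' promoters was 70.8%, beside 52.4% for all promoters, and the median number of CpG dinucleotides was 24 beside 6. Each member was counted once, by the entry nearest its gene start. The values for all promoters cover every entry, without that choice or a limit to the genes measured here. GC content was high among members that were kept (68%) and among those that were not (72%).

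The remaining 13 ligands did not reach an FPKM of 1 in either library. Wnt3, Wnt3a, and Wnt7a had no fragments in either library, nor did the R-spondin Rspo4, and 3 fragments would correspond to an FPKM of 0.027 to 0.0415 for these genes. A further 6 ligands had at most 3 fragments in a library. These were Wnt1, with 2 and 3, Wnt7b and Wnt10a, with 0 and 1 each, and Wnt8a, Wnt8b, and Wnt9b, with 1 and 0 each, so no ratio is given for them. At this depth several ligands of embryonic patterning were therefore at or near the limit of detection.

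Counts above 3 fragments were found for 4 of the low ligands. Wnt9a, a ligand known from joint and skeletal development, had 21 fragments in the sham and 50 in the irradiated library, an FPKM of 0.208 and 0.432 (ratio 2.08, 1.23 to 3.65). Wnt16, known for its role in bone, had 35 and 13 fragments, an FPKM of 0.284 and 0.0921 (ratio 0.325, 0.158 to 0.629). Wnt16 was the only ligand whose interval lay below 1. Wnt10b, which restrains adipocyte formation, had 7 and 13 fragments (ratio 1.62, 0.602 to 4.81), and Wnt6 had 2 and 8 (ratio 3.50, 0.698 to 33.8), so neither difference was resolved. Among the 8 members under an FPKM of 1 that had more than 3 fragments in a library, 1 interval lay above 0 and 1 below, beside 10.8% and 3.88% of the 3893 such genes in the file.

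Of the 19 Wnt genes, 8 lie in 4 neighbouring pairs less than 50 kb apart with no other listed gene between them. The pairs are Wnt6 with Wnt10a on chromosome 1 (gap 6.7 kb), Wnt3a with Wnt9a on chromosome 11 (16.2 kb), Wnt9b with Wnt3 also on chromosome 11 (24.4 kb), and Wnt10b with Wnt1 on chromosome 15 (11.7 kb). None of the 8 paired genes was kept, and their highest FPKM was 0.432, that of Wnt9a. The 6 ligands that were kept were all among the 11 unpaired genes.

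Of the 10 Frizzled receptors, 8 were kept, with differences from -0.28 to 0.12. Their median difference was -0.005, and 4 were higher and 4 lower, while 53.5% of all genes kept were higher. The summed FPKM of all 10 Frizzleds was 72.2 in the sham and 69.8 in the irradiated library. Fzd1 was the most abundant, with an FPKM of 30 and 28.5 and a ratio of 0.953 (0.912 to 0.994). It made up 41.5% of the Frizzled sum in the sham library and 40.9% in the irradiated library. Fzd4, which also serves as the receptor of norrin in blood vessels, had an FPKM of 14.3 and 12.3, a ratio of 0.858 (0.8 to 0.92). Fzd8 had 2.29 and 1.87, a ratio of 0.815 (0.675 to 0.983). The intervals of Fzd1, Fzd4, and Fzd8 lay below 1.

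Fzd7 was the 1 Frizzled with an interval above 1, at an FPKM of 9.09 and 9.89 (ratio 1.09, 1.01 to 1.17). It made up 12.5% of the Frizzleds kept, beside 23.8% of all genes kept, and its 99% interval includes 1. Fzd2 had 10.8 and 11.2 (0.965 to 1.13), Fzd5 2.97 and 3.13 (0.944 to 1.17), Fzd6 1.32 and 1.42 (0.87 to 1.32), and Fzd3, known for axon guidance and tissue polarity, 1.28 and 1.14 (0.788 to 1.01), where the brackets hold the interval of the ratio. All of these 4 intervals include 1. Fzd9 and Fzd10 were close to the limit of detection, with 8 and 11 fragments and with 9 and 19 fragments, respectively. The order of the 8 kept Frizzleds was Fzd1, Fzd4, Fzd2, Fzd7, Fzd5, Fzd8, Fzd6, and Fzd3 in both libraries. Fzd6 was not resolved from Fzd3 in the sham library, where the ratio of their levels was 1.04 (0.864 to 1.24), and all other neighbours in either library had intervals of this ratio above 1.

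**Figure D3:**
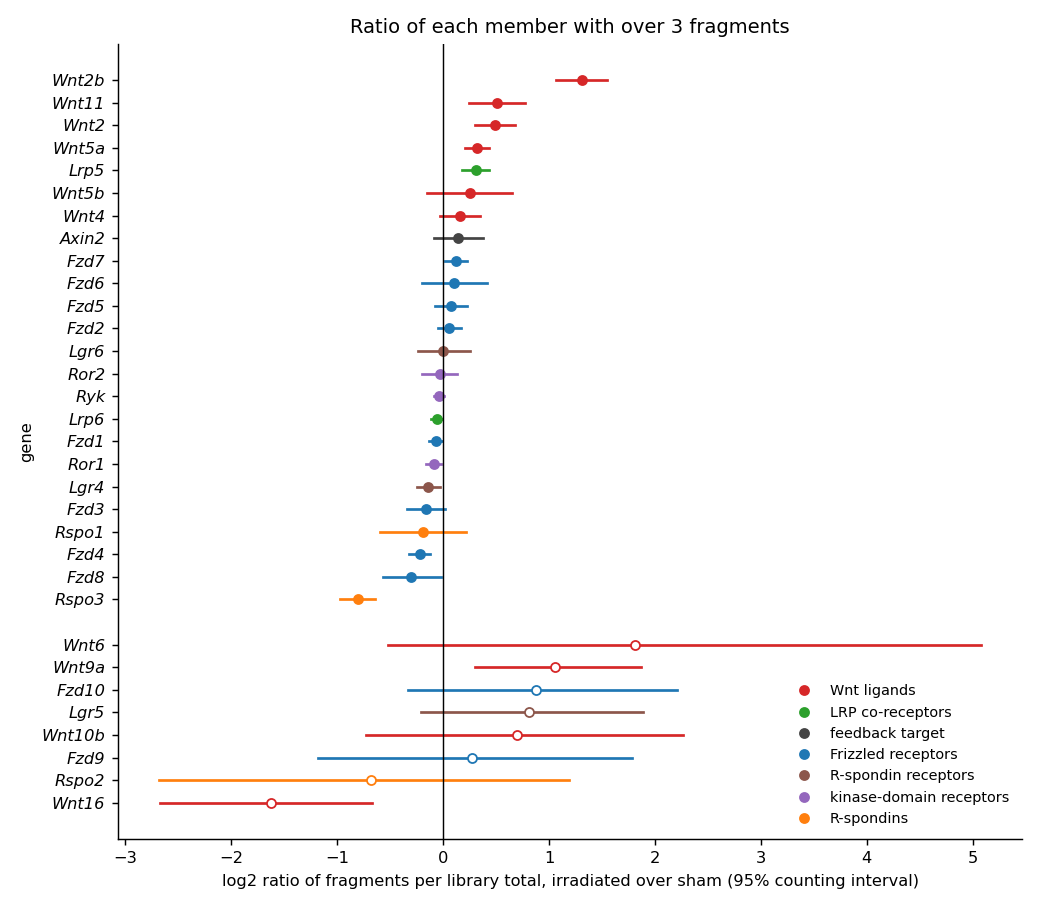
Points give the log2 ratio of fragments per library total, irradiated over sham, with a 95% counting interval, for the 24 members with an FPKM of at least 1 (filled) and the 8 lower members with more than 3 fragments in a library (open). Colours give the role. Wnt2b, at a log2 ratio of 1.31, and Rspo3, at -0.80, lie farthest from 0 among the filled points.

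The 2 LRP co-receptors had intervals on opposite sides of 1. Lrp5 had an FPKM of 4.86 in the sham library, on 888 fragments, and 6.01 in the irradiated library, on 1256 (ratio 1.24, 1.13 to 1.35). Lrp6 was the more abundant, at 17.9 and 17.2 (ratio 0.959, 0.924 to 0.995). The FPKM of Lrp6 was 3.68 times that of Lrp5 in the sham library and 2.86 times in the irradiated library. Their sum was 22.8 and 23.2.

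Ryk was the most abundant of the 42 genes, with an FPKM of 67.1 in the sham and 65.2 in the irradiated library (ratio 0.973, 0.941 to 1.01). Ror1 had 13.3 and 12.5 (ratio 0.939, 0.892 to 0.989), and Ror2 had 4.69 and 4.59 (ratio 0.979, 0.873 to 1.10). These 3 receptors of β-catenin-independent signalling thus differed by at most 0.09 on the log2 scale, and the interval of Ror1 alone among them excluded 1. Over the 13 Frizzled, LRP, ROR, and RYK receptors kept, the median difference was -0.04. Of their intervals, 2 lay above 0 (15.4%, beside 23.8% of all genes kept) and 5 below (38.5%, beside 17.4%). With 99% intervals, Fzd4 alone of the 13 lay below 0, beside 12.9% of all genes kept. Lrp5 alone lay above 0, beside 18.2%. The larger share of receptors below 0 was therefore not seen at 99%.

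Rspo3, an R-spondin known for its role in vessel formation and stem cell maintenance, had the lowest difference among the members kept. It lies on chromosome 10 from 29453107 to 29535867 (mm10, minus strand). Its FPKM was 10.2 in the sham library, on 744 fragments, and 5.84 in the irradiated library, on 488. The difference was -0.79 and the ratio 0.573 (0.51 to 0.644), and 0.533% of all genes kept had a difference as low or lower. In the sham library Rspo3 stood above its receptor gene Lgr4, 1.20 times its FPKM, and in the irradiated library below it, at 0.76 times.

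Rspo1, a factor of ovary development and epithelial growth, had an FPKM of 1.82 and 1.59, on 102 fragments in each library, and its interval includes 1 (ratio 0.874, 0.658 to 1.16). Rspo2 had 7 and 5 fragments and Rspo4 none. The summed FPKM of the 4 R-spondins was 12.0 in the sham and 7.46 in the irradiated library, 0.62 times as much, and Rspo3 made up 84.5% and 78.3% of it. Among their receptors, Lgr4, which is broadly expressed, had an FPKM of 8.47 and 7.68 (ratio 0.906, 0.839 to 0.978). Lgr6 had 2.36 in both libraries (ratio 1, 0.845 to 1.19). Lgr5, a stem cell marker of the intestine and itself a β-catenin target, had 13 and 26 fragments (ratio 1.75, 0.867 to 3.71) and an FPKM under 0.1 in both libraries.

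Axin2, which is induced by β-catenin and in turn promotes its destruction, had an FPKM of 2.09 in the sham library, on 274 fragments, and 2.31 in the irradiated library, on 346. Its ratio was 1.10 with an interval that includes 1 (0.939 to 1.30), and the difference was 0.14. A difference of Axin2 was therefore not detectable at this depth.

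**Figure D4:**
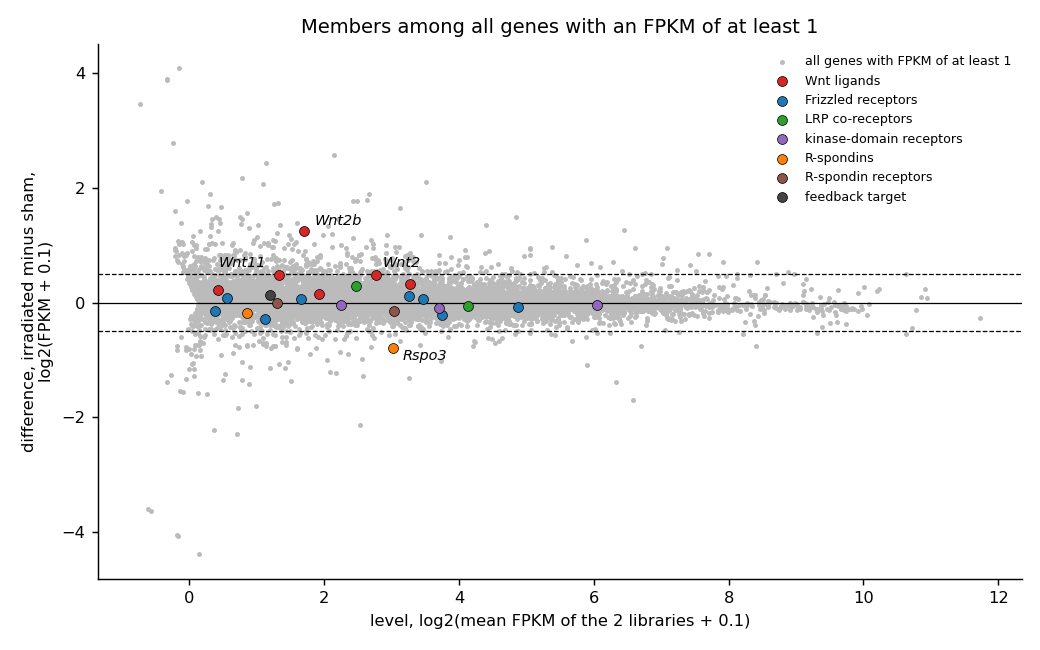
The difference on the log2(FPKM + 0.1) scale is plotted against the mean level for all 11253 genes kept (grey) and the 24 members among them (coloured by role). Dashed lines mark differences of 0.5 and -0.5. Wnt2b at 1.26 and Rspo3 at -0.79 are the members outside these lines.

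The other genes of the pathway were taken from 8 lists, with 76 genes kept when each was counted once and the 42 members were left out. Their median difference was 0.025, beside 0.02 for all genes kept. Counting intervals lay above 0 for 23 (30.3%, beside 23.8% of all genes kept) and below 0 for 13 (17.1%, beside 17.4%). Of the genes that make and release Wnt proteins, Wls, the carrier that takes them to the cell surface, had an FPKM of 43.9 and 47.1 (ratio 1.07, 1.04 to 1.11), and Porcn, which attaches their lipid, had 1.05 and 0.789 with an interval that includes 1 (0.548 to 1.04). Of the ligases that R-spondins control, Znrf3, also a β-catenin target, had 1.55 and 1.82 (ratio 1.17, 1.02 to 1.35), and Rnf43 had 3 fragments and 1.

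Of 17 β-catenin target genes other than members, 13 were kept, 9 of them higher and 3 lower, with a median difference of 0.07. Of their intervals, 4 lay above 0 (30.8%, beside 23.8% of all genes kept) and 3 below (23.1%, beside 17.4%). The highest differences were those of Ccnd1, a cell cycle gene, at 0.74, and Cd44, an adhesion receptor, at 0.32, and the lowest were those of Apcdd1, a Wnt inhibitor, at -0.46 and Wisp1, a matricellular gene, at -0.21. Lef1, a TCF/LEF factor and a target, had 27 and 39 fragments and was not kept.

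Of 13 secreted antagonists, 4 were kept, and the intervals of Sfrp1 (-0.36) and Sfrp2 (-1.38) lay below 0, while Dkk3 (0.11) and Notum (0.04) had intervals that include 0. Of 19 cytoplasmic transducers and destruction complex genes, 18 were kept, with differences from -0.13 (Csnk1a1) and -0.10 (Gsk3a) to 0.25 (Dvl1) and 0.28 (Csnk1e), and with 4 intervals above 0 and 3 below. Of 14 TCF/LEF factors and co-factors, 12 were kept, from Bcl9l (-0.26) and Bcl9 (-0.14) to Tle1 (0.17) and Tle4 (0.19), with 2 intervals on either side of 0. Of 22 genes of planar cell polarity and other β-catenin-independent signalling, 17 were kept, from Invs (-0.11) and Nfatc3 (-0.10) to Camk2g, Nfatc1, and Vangl1 (tied at 0.16), with 5 intervals above 0 and 1 below. Of 16 co-receptors and modulators found in the file, 12 were kept, from Adgra2 (-0.38) and Gpc4 (-0.17) to Gpc3 and Kremen1 (tied at 0.17) and Gpc1 (0.35), with 7 intervals above 0 and 2 below. In the order named, intervals above 0 made up 0%, 22.2%, 16.7%, 29.4%, and 58.3% of these lists' kept genes, beside 23.8% of all genes kept. Intervals below 0 made up 50%, 16.7%, 16.7%, 5.88%, and 16.7%, beside 17.4%.

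Markers of several cell types also differed between the libraries. Of 11 mesothelial markers, 10 were kept, 9 of them with a difference of at least 0.5, beside 4.31% of all genes kept. Msln, Krt18, Upk3b, Krt19, and Gpm6a were kept through the irradiated library alone, with an FPKM of 0.52 to 0.893 in the sham library. The summed FPKM of the 11 markers was 38.3 in the sham and 56.1 in the irradiated library. Wt1 was the exception among those kept, at -0.13. The 11 fibroblast and progenitor markers, led by Col1a1, summed to 4393 and 3502, with 6 markers higher and 5 lower and a median difference of 0.01. Col1a1, Col1a2, and Col3a1 made this difference in the sum, with 3581 and 2695, and the other 8 markers summed to 812 and 807. The sum was 605 and 644 for 10 macrophage markers, 46.5 and 50.9 for 9 endothelial markers, 679 and 782 for 9 markers of pericytes and smooth muscle, and 177 in both libraries for 12 adipocyte markers. Acta2 alone had 544.9 and 643.5 of the pericyte and smooth muscle sum. In the macrophage sum, the most abundant marker, Lyz2, was lower (442.5 and 410.0), while Cd68 had 59.2 and 96.9. In the mesothelial sum, the most abundant marker, Wt1, was lower (20.4 and 18.7). Lymphocyte markers (2.1 and 1.02), Schwann cell markers (2.08 and 2.9), and markers of reproductive epithelium (0.154 and 0.277, with Crisp1, Lcn5, and Lcn8 without fragments) summed to low levels. Thus the mesothelial, macrophage, endothelial, and pericyte and smooth muscle sums were all higher in the library in which the kept Wnt ligands were higher. Of all markers in those lists, kept or not, 10 of 11, 7 of 10, 7 of 9, and 8 of 9 were higher, in the order named. The share of all genes that were higher, 53.5%, covers kept genes only. Among the pericyte and smooth muscle markers, Cspg4 (FPKM 0.795 and 1.35) was kept through the irradiated library alone. For markers kept in that way, a higher value there was fixed in advance. Apart from the 3 collagens, the fibroblast and progenitor markers lower in the library in which Rspo3 was lower were Pdgfra (-0.37) and Pi16 (-0.55). The other 6 had a higher value there, namely Dpp4 (0.44), Thy1 (0.40), Ly6a (0.13), Cd34 (0.09), Dcn (0.01), and Lum (0.01). The intervals of Cd34, Dcn, and Lum include 0, and Dpp4 (FPKM 0.886 and 1.24) was kept through the irradiated library alone. The part of these markers in the differences was not tested.

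**Figure D5:**
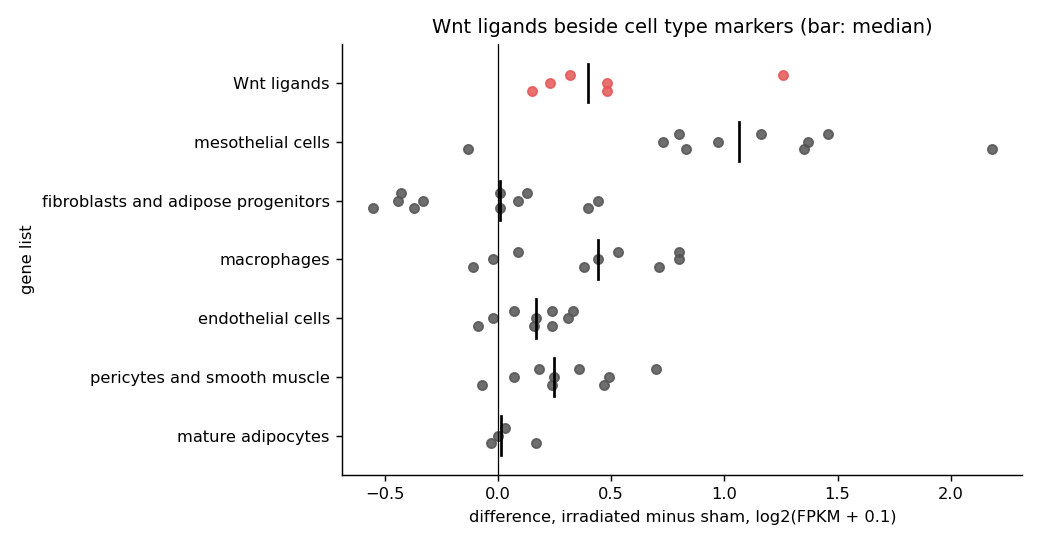
Points give the difference on the log2(FPKM + 0.1) scale of the 6 kept Wnt ligands (red) and of the kept genes of 6 cell type marker lists (grey), with a bar at each median. The median is 0.4 for the Wnt ligands, 1.065 for mesothelial markers, 0.01 for fibroblast and progenitor markers, and 0.44 for macrophage markers.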

How the data were processed

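RNA sequencing of 2 libraries was analysed, and samples were grouped by their treatment label. The deposited table holds log2(FPKM + 0.1) for 24091 genes, rounded to 2 decimals by the authors, with gene coordinates and lengths. The submitters' processing notes name the build mm10. Aligner, counting tool, and filters: not given in the sources used here. FPKM was recovered by undoing the logarithm. Fragments were recovered from FPKM, gene length, and the depth at which low values fell on whole numbers, which all 3449 genes examined in the sham library and all 3422 in the irradiated library did within 0.12. Of the recovered fragments, 86.8% and 86.9% lay on listed genes. Rounding makes large counts approximate. The procedure was tested on simulated data.

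A gene was kept if either library reached an FPKM of 1. The members and lists were chosen with earlier results of these data known. All kept members are named. From each pathway list, the 2 genes with the highest and the 2 with the lowest difference are named, and Porcn, Wls, Znrf3, Rnf43, and Lef1 always. Wnt16 and Wnt9a were singled out after their values were seen. Alternatives were another pseudocount, filter, scaling, threshold, and interval. Calculations used SciPy 1.17.1 and pandas 2.3.3 in Python 3.11.15, with plots by matplotlib 3.10.9.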

Additional observations from a re-analysis of the deposited data

How the results depend on the processing

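No paired analysis was possible because there was a single sham and a single irradiated library, which also leaves no replicate to omit. The number of members with a difference of at least 0.5 was 1, and it was 4 of 42 without a filter, where Fzd10, Wnt6, and Wnt9a were added, beside 5.5% of all genes, and 0 of 12 with an FPKM of at least 5, which leaves out Wnt2b, beside 2.47%. The number with a difference of -0.5 or lower was 1, and it was 2 without a filter, where Wnt16 was added, beside 2.83% of all genes, and 0 at a threshold of 1. With 99% intervals, 2 members in place of 7 lay below 0, beside 12.9% of all genes kept, and 5 in place of 6 above, without Fzd7, beside 18.2%. The median difference of the members lay between -0.05, with an FPKM of at least 5, and 0.069, for the mean in its place. A library total that omits the 100 top genes by level moved every gene by -0.014 and added Ryk to the intervals below 0. With a pseudocount of 1, the difference of Wnt2b was 0.96. No kept member whose interval excluded 0 changed sign under another pseudocount, centring, or scaling.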
